A study of Mus musculus with 33 samples.

Results

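*Hp1α/γ* Δ/Δ mouse embryonic stem cells (ESCs), which lack HP1α and HP1γ but keep HP1β, were compared with *wild-type* ESCs by RNA sequencing. The comparison holds 6 of the 33 libraries of the series, 3 of the double mutant and 3 of the *wild-type* set deposited beside it (set B), and covers every gene of the table, 55487 in all. Of these, 15841 had enough reads to be tested. All cells were C57BL/6 ESCs grown on mitotically inactivated embryonic fibroblast feeders in medium with serum and leukemia inhibitory factor. The study's methods describe a step on gelatin that leaves most feeder cells behind. The double mutant is a constitutive knockout made with Cas9 and paired guide RNAs, from clones screened by PCR, whereas set B carries no engineered allele. The study's methods call the 3 libraries of a genotype biological replicates, but the labels do not say whether they are separate clones or cultures, so p-values measure only the spread between these samples. The other double mutant, *Hp1β/γ* Δ/Δ, stands beside the same set B, and the single mutants, *Hp1α* Δ/Δ and *Hp1γ* Δ/Δ, stand beside another *wild-type* set (set A).

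HP1 proteins are small nuclear proteins of heterochromatin that read methylation of histone H3 at lysine 9, a mark of silent chromatin. Their N-terminal chromodomain holds the marked histone tail, and 2 HP1 molecules pair through the C-terminal chromo shadow domain. Mouse ESCs hold HP1α (*Cbx5*), HP1β (*Cbx1*) and HP1γ (*Cbx3*). In serum with leukemia inhibitory factor, ESCs express the transcription factors of naive pluripotency, and on the way to differentiation they pass through a formative state in which those factors decline and genes such as *Fgf5*, *Pou3f1* and the de novo DNA methyltransferases rise.

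The guides that define the genotype are shown first, since every result rests on what they removed. The last 10 bases of each, on the side of the PAM, are in capitals.
Hp1α upstream guide: ctcgccagttCTGCCGAGAT
Hp1α downstream guide: ggctgagtgaGAACTAGTAG
Hp1γ upstream guide: gaggtgcttaCACTGGATCA
Hp1γ downstream guide: tatgatagccTTGCCGAGCG
Each pair brackets the stretch that was deleted from its gene, and the cut positions were not placed on the genome here. Reads of *Cbx5* and *Cbx3* remained. Counts cover the whole of each gene, and the source of the remaining reads was not tested.

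Values below are counts scaled to library size (CPM), in the order of replicates 1, 2 and 3. *Cbx5*, on chromosome 15 of GRCm38 (chr15:103191544-103239816), had 448, 422 and 415 CPM in set B and 171, 75.2 and 170.4 CPM in *Hp1α/γ* Δ/Δ ESCs. It fell by 1.63 on the log2 scale (SE 0.297, adjusted p = 0.00396). Every adjusted p given here is from the quasi-likelihood test of edgeR, adjusted by Benjamini-Hochberg over all genes tested. *Cbx3* (chr6:51470360-51483704) had 188, 148 and 166 CPM against 75.0, 88.6 and 78.9 CPM, a log2 fold change of −1.05 (SE 0.129, adjusted p = 7.12e-04), and processed copies of this gene elsewhere in the genome can share its reads. *Cbx1* (chr11:96789127-96808640), the gene left intact, had 384, 352 and 366 CPM against 336, 340 and 356 CPM. Its log2 fold change was −0.10 (SE 0.0979, adjusted p = 0.443) and the groups overlapped. Both targeted genes thus lay lower in every mutant library than in any *wild-type* library. Per transcript length, in the deposited TPM, *Cbx1* had the highest level of the family in both genotypes, 395 ± 6.53 TPM (SD, n = 3) in set B and 287 ± 56.7 TPM (SD, n = 3) in the mutant. By library these were 402, 389 and 394 TPM against 311, 223 and 328 TPM, so the groups were apart in TPM but not in CPM. *Cbx5* went from 73.8 ± 1.84 to 18.6 ± 9.90 TPM and *Cbx3* from 149 ± 16.7 to 67.4 ± 8.07 TPM (SD, n = 3 each).

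A change was called where the adjusted p was under 0.05 and the log2 fold change was beyond 1 in either direction. Of all genes tested, 6.75% rose and 16.3% fell, 23.1% in either direction. The genes that rose were mostly low in *wild-type* ESCs, with a median of 2.19 CPM in set B and 7.70 CPM in the mutant, and 409 of the 1069 (38.3%) were below 1 CPM in set B. Those that fell went from a median of 5.33 CPM to 1.38 CPM, and 1119 of the 2588 (43.2%) ended below 1 CPM. Over 8-fold changes numbered 126 among the former and 301 among the latter. Protein coding genes made up 71.7% of the genes that rose, 93.7% of those that fell and 87.9% of all genes tested. All 3 mutant libraries lay above all 3 *wild-type* libraries for 28.8% of genes and below them for 34.2%.

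Replicate 2 of the double mutant stood apart. Genes were put in 10 equal groups by transcript length, and in the shortest group, up to 1015 bases, the median log2 ratio to set B was 0.24, 0.82 and 0.26 in mutant replicates 1, 2 and 3. In the longest, from 6052 bases, it was −0.20, −1.02 and −0.25. The trend therefore had the same direction in replicates 1 and 3 with a smaller size, and the *wild-type* libraries stayed within 0.0204 of their own mean. Total counts did not set it apart, at 23228438 in replicate 2, 22516304 and 23831465 in its partners, and 20227760 to 22232767 in set B. Replicate 2 also had no count for 4 genes with at least 5 CPM in both of its partners, among them *Adnp*, a heterochromatin factor (38.6 and 41.2 CPM in replicates 1 and 3). No other library of the comparison had such a gene. Without replicate 2, 6.56% of 16277 genes tested rose and 16.8% fell, and 3224 genes were called with and without it, each with the same sign in both. They are 88.2% of the calls of the 6 libraries and 84.8% of those made without replicate 2. Replicates 1 and 3 also had a trend with GC content of the transcript. In the lowest of 10 GC groups the median log2 ratio was 0.23, −0.14 and 0.26 in mutant replicates 1, 2 and 3, and in the highest −0.25, −0.01 and −0.27. The *wild-type* libraries ran from −0.09 to 0.09 there. Without replicate 2, 144 genes fell in the lowest group and 404 in the highest, so leaving replicate 2 out did not remove this trend. Calls of named genes that were lost without replicate 2 are given beside the gene, and list counts without it beside the list where they differ.

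**Figure D1:**
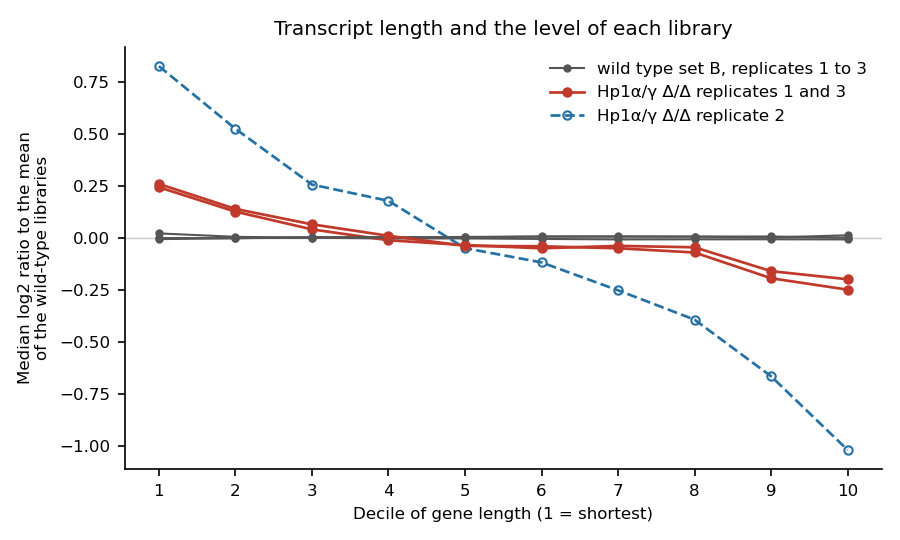
Median log2 ratio of each library to the mean of the *wild-type* set B libraries (y axis) for genes in 10 groups of transcript length, from shortest to longest (x axis), with 1 line per library. *Hp1α/γ* Δ/Δ replicate 2 falls from 0.82 to −1.02, replicates 1 and 3 fall from about 0.24 and 0.26 to −0.20 and −0.25, and the *wild-type* libraries stay near 0.

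Transcription factors and markers of naive pluripotency were mostly higher in *Hp1α/γ* Δ/Δ ESCs. Of 20 genes listed, 10 rose and none fell past the threshold, with a median log2 fold change of 0.91, whereas the median of all genes tested was −0.0185. The log2 fold change was positive for 15 of the 20 and negative for 5, and for 3 genes all mutant libraries lay below all *wild-type* libraries. Without replicate 2 the count was 9 and the median 0.93, and *Spp1*, which encodes osteopontin, was the gene that dropped under the fold threshold (1.0 with 6 libraries and 0.92 without replicate 2). *Tbx3*, a T-box factor that sustains the naive state, changed most. It had 3.76, 4.70 and 3.81 CPM in set B and 94.8, 77.8 and 93.8 CPM in the mutant (chr5:119670669-119684724). Its log2 fold change was 4.44 (SE 0.158, adjusted p = 1.58e-05), which is 21.7-fold. *Nr5a2*, a nuclear receptor that drives *Pou5f1*, went from 20.4, 22.9 and 26.6 CPM to 103, 69.9 and 107 CPM, a log2 fold change of 2.0 (SE 0.194, adjusted p = 2.89e-04). *Prdm14*, a repressor of fibroblast growth factor signalling and of DNA methylation, had 6.45, 7.66 and 7.78 CPM against 26.3, 28.3 and 29.1 CPM, a log2 fold change of 1.93 (SE 0.124, adjusted p = 7.72e-05). In each of these genes the lowest mutant library was above the highest *wild-type* library. *Tcl1*, a cofactor of AKT, *Manba*, a lysosomal enzyme used as a naive marker, and *Nr0b1*, which encodes DAX1, rose by 2.52, 2.25 and 1.76 on the log2 scale. The factors *Klf4*, *Zfp42* (REX1) and *Tfcp2l1* rose by 1.03, 1.06 and 1.03. *Tfcp2l1* had 109, 108 and 107 CPM in set B and 278, 122 and 261 CPM in the mutant, so replicate 2 lay near the *wild-type* level. *Esrrb*, with a log2 fold change of 0.82 (adjusted p = 0.00195), was under the fold threshold.

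Among 20 genes of general pluripotency 5 rose and none fell (median 0.65, and 0.53 without replicate 2, with the same count). *Nanog* (chr6:122707489-122714633) had 187, 187 and 199.5 CPM in set B and 517, 572 and 527 CPM in the mutant, a log2 fold change of 1.5 (SE 0.103, adjusted p = 9.60e-05), or a 2.82-fold rise. *Foxd3*, a forkhead factor needed for ESC self-renewal, rose by 1.84 on the log2 scale, *Dppa5a* by 1.65 and *Tdh*, the threonine dehydrogenase of mouse ESCs, by 1.55. *Pou5f1* (OCT4) had 744, 764 and 730.4 CPM against 1034, 1641 and 1073 CPM. Its log2 fold change of 0.74 (SE 0.188, adjusted p = 0.0152) did not reach 1, and it was 0.51 without replicate 2, the highest library. *Sox2*, with 366, 368 and 362 CPM against 337, 354 and 368 CPM, had a log2 fold change of −0.05 (SE 0.0965, adjusted p = 0.688), with overlap. The 3 core factors hence moved by different amounts, *Nanog* past the threshold and the other two not.

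Genes of the formative and primed states went the other way. Of 16 genes 7 fell and 1 rose (median −0.86, and −0.94 without replicate 2, with the same counts). *Pou3f1* (OCT6), a POU factor of the formative epiblast, had 26.7, 32.4 and 29.7 CPM in set B and 3.86, 5.72 and 3.79 CPM in the mutant (log2 fold change −2.73, SE 0.190, adjusted p = 9.75e-05). *Sox4*, an SRY-box factor, had 114.5, 114.4 and 106 CPM against 16.1, 10.3 and 15.8 CPM (log2 fold change −2.99, SE 0.188, adjusted p = 7.63e-05). *Fgf5*, the classical marker of the epiblast after implantation, was low throughout, with 1.3, 0.931 and 1.25 CPM against 0.0459, 0.0969 and 0.174 CPM (log2 fold change −3.37, SE 0.447, adjusted p = 9.91e-04). All 3 genes were lower in every mutant library than in any *wild-type* library. *Otx2*, which opens the formative program, had 10.4, 9.48 and 11.2 CPM against 9.04, 8.86 and 8.05 CPM, a log2 fold change of −0.26 (SE 0.128, adjusted p = 0.136). The gene that rose was *Lef1*, a transcription factor of the Wnt pathway (1.66).

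**Figure D2:**
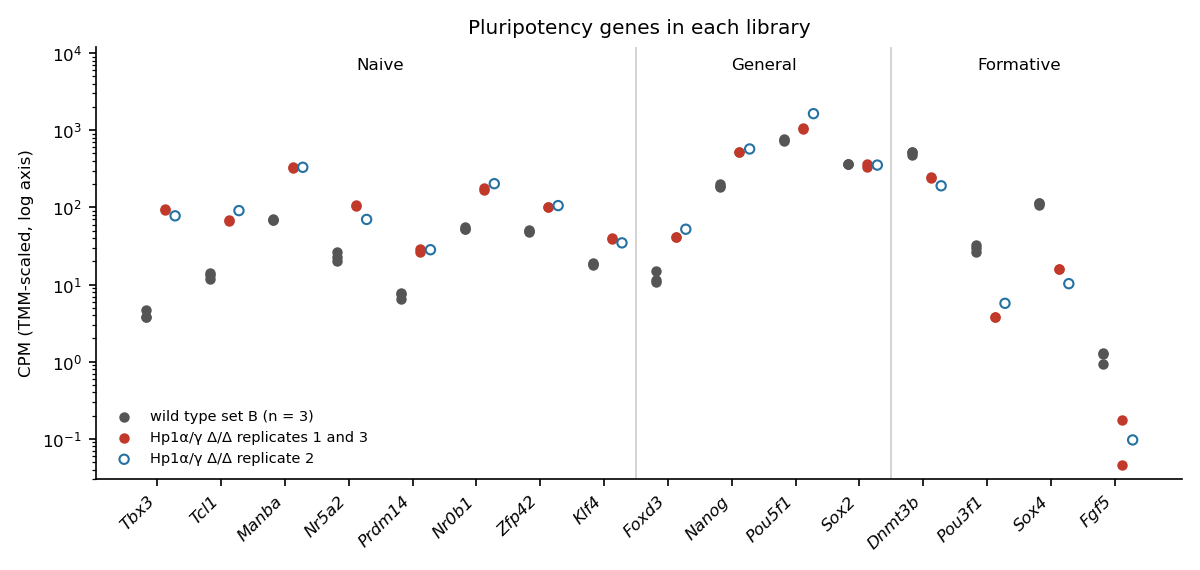
CPM of naive, general and formative pluripotency genes (log axis) in each of the 6 libraries, 1 point per library. The 3 mutant libraries lie above the *wild-type* ones for the 8 naive genes, *Foxd3*, *Nanog* and *Pou5f1*, overlap them for *Sox2*, and lie below them for *Dnmt3b*, *Pou3f1*, *Sox4* and *Fgf5*.

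Enzymes of DNA methylation were split. Of 10 genes 2 rose and 4 fell, with and without replicate 2, beside 6.75% and 16.3% of all genes tested. Only 1 rose without replicate 1 or without replicate 2 of set B. Only 2 fell with replicate 2 of the mutant out and the length trend removed. *Dnmt3a* and *Dnmt3b*, the de novo methyltransferases, fell by 1.54 (SE 0.108, adjusted p = 9.79e-05) and 1.18 (SE 0.131, adjusted p = 4.73e-04) on the log2 scale. *Dnmt3a* had 167, 165 and 158 CPM in set B and 56.6, 51.1 and 60.4 CPM in the mutant, and *Dnmt3b* went from 483, 522 and 525 CPM to 246, 191 and 240.2 CPM. *Dnmt3l*, their catalytically inactive cofactor, rose by 1.58 (SE 0.139, adjusted p = 1.97e-04), from 258, 262 and 258 CPM to 696, 923 and 707 CPM. The dioxygenase *Tet2* went from 59.5, 61.7 and 61.5 CPM to 282, 79.4 and 259 CPM. Replicate 2 again lay near set B, and the log2 fold change of *Tet2* was 1.77 (SE 0.422, adjusted p = 0.0122) with it and 2.16 (SE 0.0569, adjusted p = 3.71e-12) without it. *Tet3* and *Uhrf2* fell by 1.34 and 1.23.

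Of the 6 methyltransferase genes that write H3K9 methylation 1 fell, *Suv39h1*, which acts at pericentromeric heterochromatin. It had 47.2, 44.7 and 42.7 CPM in set B and 18.2, 13.4 and 17.4 CPM in the mutant (chrX:8061171-8074760), a log2 fold change of −1.46 (SE 0.143, adjusted p = 3.00e-04). *Setdb1*, which silences endogenous retroviruses, had 176, 171 and 175.5 CPM against 175, 127 and 171 CPM (log2 fold change −0.14, SE 0.142, adjusted p = 0.435), and the groups overlapped. *Ehmt1*, which encodes GLP, lay between these with a log2 fold change of −0.93 (adjusted p = 0.00499). Among 20 cofactors 1 gene fell, *Wiz*, a zinc finger partner of the EHMT enzymes, by 1.06, and none did without replicate 2 (*Wiz* −0.89). Of 9 demethylases *Kdm7a* fell (−1.55), and these counts stand beside 16.3% of all genes tested that fell. In PRC2 *Epop*, an accessory subunit, rose by 2.08.

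Signalling genes were mixed, beside 6.75% of all genes tested that rose and 16.3% that fell. In the Nodal and Lefty list 3 of 18 rose and 5 fell, with and without replicate 2. *Bmp4*, a ligand that works with leukemia inhibitory factor in ESC self-renewal, had 3.81, 3.77 and 3.94 CPM in set B and 31.8, 34.7 and 30.5 CPM in the mutant, a log2 fold change of 3.07 (SE 0.119, adjusted p = 2.04e-05). *Smad3*, a transducer of Nodal and activin, fell by 2.52, from 27.4, 30.4 and 28.8 CPM to 5.28, 3.58 and 6.22 CPM. The antagonist *Lefty1* fell by 1.89 whereas its neighbour *Lefty2* had a log2 fold change of 0.92 (adjusted p = 3.78e-04), under the threshold. In the list of the fibroblast growth factor and ERK pathway 4 of 20 rose and 4 fell (4 and 3 without replicate 2, and 2 fell with RLE size factors, DESeq2, the joint fit or set A as control). Its largest change was in the receptor *Fgfr2*, with 27.7, 27.5 and 28.7 CPM against 1.74, 1.74 and 1.74 CPM (log2 fold change −4.0, SE 0.121, adjusted p = 8.52e-06). Of the feedback targets of ERK, *Phlda1* and *Etv4* rose by 2.41 and 1.62. Among 15 Wnt targets 4 rose and 3 fell (4 and 4 of 16 without replicate 2). *Notum*, a secreted Wnt deacylase, rose by 2.81 and *Axin2* by 1.67, whereas the inhibitors *Rnf43* and *Nkd2* fell by 3.13 and 2.58. Negative regulators of the pathway thus moved in both directions.

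Lineage lists were mixed, beside 6.75% of all genes tested that rose and 16.3% that fell. Of 17 tested genes of primitive endoderm 1 rose and 6 fell (1 and 7 of 18 without replicate 2). *Sox7* rose, from 0.418, 0.762 and 0.649 CPM to 5.09, 3.78 and 3.79 CPM (log2 fold change 2.77). The endocytic receptor *Lrp2* and its adaptor *Dab2* fell by 3.41 and 5.04, *Dab2* from 7.66, 5.88 and 8.04 CPM to 0.275, 0.0484 and 0.305 CPM. The sum of 6 defining markers of this lineage lay between 1.72 and 2.98 CPM in set B and was 8.17, 5.57 and 5.83 CPM in the mutant, while *Gata6*, *Sox17* and *Foxa2* were too low to be tested. In the mesoderm and streak list 4 of 16 rose and 4 fell, and without replicate 2 the counts were 4 and 6 of 17. The homeobox gene *Evx1* rose from 2 counts in set B to 306 counts in the mutant, a ratio of 160.0-fold with a 95% counting interval from 43.9 to 1330-fold. The ligand *Wnt3* and the receptor *Kdr* fell by 4.29 and 3.46. Of 13 neural genes 4 rose and 3 fell, with *Nefm*, a neurofilament subunit, at 3.71 and *Neurod1* at −3.97. These counts were 3 and 4 of 14 without replicate 2 and 1 and 5 with set A as control, and 2 rose without replicate 1 of set B. In the trophoblast list 8 of 19 fell and 1 rose (median −0.56), and 8 and 2 did without replicate 2 (median −0.87). Those that fell include the keratins *Krt8* and *Krt18* (−2.24 and −2.13) and *Ascl2* (−1.77). *Krt8* had 89.4, 94.3 and 91.6 CPM in set B and 17.2, 23.3 and 17.9 CPM in the mutant, with no overlap.

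Of 39 tested germline genes 13 rose and 8 fell (median 0.0856), beside 6.75% and 16.3% of all genes tested. Without replicate 2 the counts were 12 and 7 of 40. *Dazl*, an RNA-binding protein of germ cells, rose by 2.15, *Syce1*, a part of the synaptonemal complex, by 1.93, *Stra8*, the gatekeeper of meiosis, by 1.73, and *Fkbp6* by 3.49. *Dazl* had 1.35, 1.61 and 1.82 CPM in set B and 7.11, 6.44 and 7.70 CPM in the mutant. *Usp26*, an X-linked gene, had the highest counts of those that fell, with 177, 158 and 162 CPM against 37.2, 18.5 and 37.4 CPM (log2 fold change −2.42, SE 0.266, adjusted p = 4.56e-04). *Tdrd1* of the piRNA pathway and *Sycp3* of the synaptonemal complex fell by 2.36 and 1.66. Of 40 genes of the 2-cell state 5 were tested and 2 rose, one of them *Tdpoz6* (0.929, 1.23 and 0.822 CPM against 172, 93.2 and 169.9 CPM). *Tdpoz6* belongs to a family of near-identical copies, so that its reads may stem from more than one gene.

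Of 53 tested imprinted genes 20 fell, 3 rose and 30 were not called (median −0.53), beside 16.3% of all genes that fell. Without replicate 2 the counts were 18 and 3 of 54. At the *H19* and *Igf2* locus on chromosome 7 the neighbours moved apart. *H19*, a maternally expressed RNA (chr7:142575529-142578143), rose from 0.650, 0.212 and 0.692 CPM to 9.68, 11.9 and 9.53 CPM (log2 fold change 4.32, SE 0.341, adjusted p = 1.35e-04). *Igf2*, the paternally expressed growth factor (chr7:142650766-142666816), fell from 74.0, 73.4 and 76.7 CPM to 9.96, 11.1 and 11.7 CPM (log2 fold change −2.78, SE 0.114, adjusted p = 2.36e-05). At the *Peg3* locus, also on chromosome 7, the paternally expressed *Peg3* and *Usp29* fell by 2.34 and 2.78, and their maternally expressed neighbour *Zim1* by 2.18. *Peg3*, a zinc finger gene, had 475.5, 460.0 and 450.5 CPM against 116, 46.0 and 112 CPM. At the *Dlk1* and *Meg3* locus on chromosome 12, *Dlk1*, which is paternally expressed, and the maternal RNAs *Meg3* and *Rian* fell by 2.11, 1.05 and 1.31, and *Meg3* was under the threshold without replicate 2 (−0.94). Genes of either parental origin thus fell at the latter loci. *Cdkn1c*, a maternally expressed inhibitor of the cell cycle, fell by 1.89.

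A run of zinc finger genes on chromosome 4 rose together. Of 62 tested genes named *Zfp900* to *Zfp999*, which are mostly KRAB zinc finger genes, 12 rose and none fell (median 0.40), and without replicate 2 the count was 15 and the median 0.47. All 12 of the former count lie on chromosome 4, where 16 of the 62 are. Between the first and the last of them (chr4:145510759-147642513, 2.13 Mb) 39 genes were tested, of which 22 rose and none fell, with a median log2 fold change of 1.10. Without replicate 2, 25 rose and the median was 1.27. The 12 genes from which the interval was drawn are counted among the 22 and enter these medians. *Zfp985* had 12.3, 11.6 and 13.1 CPM in set B and 145, 127 and 148 CPM in the mutant (log2 fold change 3.51, SE 0.122, adjusted p = 1.50e-05). *Zfp982*, *Zfp986*, *Zfp990* and *Zfp978* followed, at 2.20, 2.07, 2.05 and 1.49. *Zfp982* had 28.1, 22.5 and 23.2 CPM against 123, 86.1 and 129 CPM, and the groups of each of these 5 genes were apart. These genes are near copies of each other, so reads could be split among them. In the other mutants, each against its own *wild-type* set, the median of the same 39 genes was 0.74 in *Hp1β/γ* Δ/Δ, 0.0515 in *Hp1γ* Δ/Δ and −0.63 in *Hp1α* Δ/Δ ESCs. Single genes could differ from these medians. In the same order *Zfp985* had log2 fold changes of 3.42, 2.51 and 0.73, and *Zfp982* 1.58, 0.44 and −0.19. The interval was drawn from calls in *Hp1α/γ* Δ/Δ ESCs and not in these mutants, so the medians are not on equal terms.

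**Figure D3:**
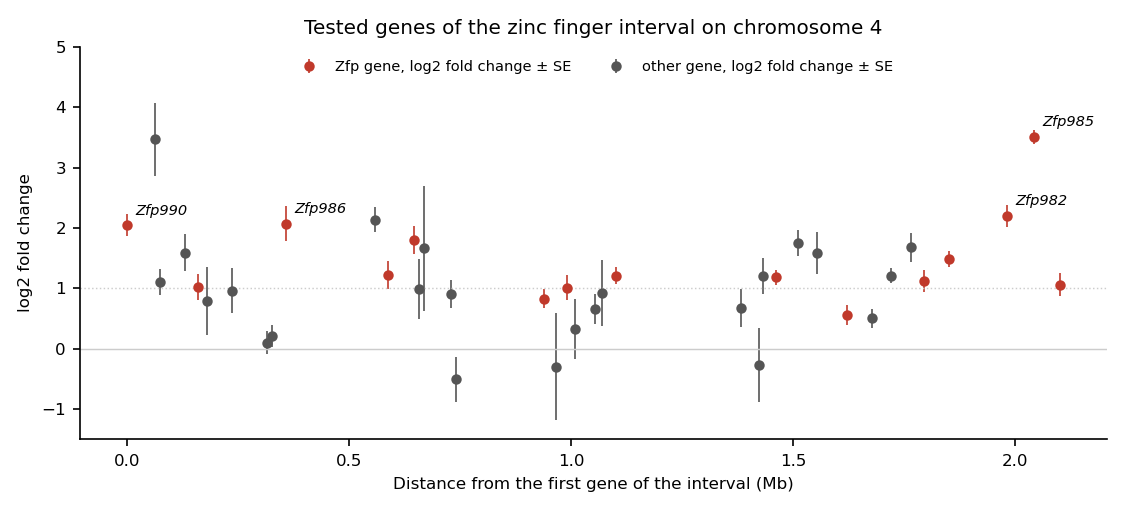
Log2 fold change ± SE (y axis) of the 39 tested genes of the chromosome 4 interval by distance from its first gene in Mb (x axis), with *Zfp* genes and other genes in different colours. Of the 39 genes 36 lie above 0 and 22 passed the threshold, among them the 12 from which the interval was drawn, with *Zfp985* at 3.51.

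The start sites of these genes share sequence. Of the 12 that rose, 8 have a promoter entry in RefSeq (GRCm38.p6, 250 bases before to 50 after the start). Of the 8, 5 were chosen after the sequences were read, and other sets of 5 were not searched. These 5 hold the same run of 21 bases, the longest that they share. It is shown in capitals within its surroundings, 5′ to 3′ on the strand of the gene.
Zfp979 (chr4:147642471-147642525, minus strand): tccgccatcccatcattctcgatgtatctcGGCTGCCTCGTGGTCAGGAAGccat
Zfp980 (chr4:145670680-145670734, plus strand): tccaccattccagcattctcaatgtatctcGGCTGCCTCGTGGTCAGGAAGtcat
Zfp981 (chr4:146514881-146514935, plus strand): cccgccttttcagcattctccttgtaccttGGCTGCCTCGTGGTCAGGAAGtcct
Zfp982 (chr4:147492390-147492444, plus strand): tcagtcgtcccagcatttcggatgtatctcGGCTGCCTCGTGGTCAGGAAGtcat
Zfp985 (chr4:147553265-147553319, plus strand): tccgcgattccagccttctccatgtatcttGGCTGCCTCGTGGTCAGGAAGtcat
Both strands were searched, and 7 of 32851 promoters (0.0213%) hold it, the others being *Rex2* and *Zfp600* of the same interval. The match describes likeness of sequence among copies and not a binding site. *Zfp979*, *Zfp980* and *Zfp981* had log2 fold changes of 1.06, 1.02 and 1.01, just over the threshold, so the shared run goes with both small and large changes.

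Of 29 tested genes of the feeder list 20 fell and 3 rose (median −1.78), and of 32 collagens 14 fell and 2 rose (median −0.73). Without replicate 2 these counts were 20 and 2, and 19 and 3 of 36. *Col1a2*, a chain of type I collagen, had 4.60, 6.22 and 6.49 CPM in set B and 0.321, 0.0484 and 0.0435 CPM in the mutant (log2 fold change −5.33, SE 0.505, adjusted p = 2.62e-04). *Col1a1*, its partner chain, fell by 2.19, *Acta2*, smooth muscle actin, by 5.22 and *Thy1* by 1.78. On the scale of all 18 libraries, *Col1a1* averaged 14.9 CPM in set B and 5.97 CPM in set A. Its mean in the mutant was 3.38 CPM, so the size of its fall depends on the *wild-type* set. *Dcn*, a small proteoglycan, had 56 counts in set B and 2 in the mutant, 26.8-fold lower with a 95% counting interval from 7.08 to 227-fold. The basement membrane collagens *Col4a1* and *Col4a2* fell by 1.34 and 1.56, and *Zeb2* by 4.28. In contrast, *Col6a3* rose by 2.96, *Ccn2* by 1.47 and *Timp1* by 1.16 (0.79 without replicate 2).

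All cultures were grown on feeders, and the summed level of 12 defining fibroblast markers lay between 49.8 and 57.5 CPM in set B and was 10.9, 10.5 and 10.01 CPM in the mutant. All 8 of the 12 that were tested fell, and *Twist2*, *Prrx1*, *Postn* and *Lum* were too low. None of the 12 was at 0 in all 6 libraries. With all 18 libraries of the 6 groups on one scale, the same sum, in CPM, ran between 10.4 and 11.4 in the *Hp1α/γ* Δ/Δ libraries, 51.1 to 58.7 in set B, 37.3 to 40.7 in *Hp1β/γ* Δ/Δ, 32.8 to 37.2 in *Hp1α* Δ/Δ and 42.6 to 47.2 in *Hp1γ* Δ/Δ ESCs, and 32.6 to 33.7 in set A. In bulk RNA fewer cells of a type and less RNA per cell cannot be told apart, and the part of feeder content in these falls was not tested. The 10 markers of ESCs summed to 3918 to 3938 CPM in set B and to 6053, 8013 and 6202 CPM in the mutant. Only 3 of these 10 rose past the threshold and none fell, so the sum does not stand for each marker. Markers of macrophages and blood stayed under 0.689 CPM in every library, with *Adgre1* and *Hbb-bt* at 0.

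Of 58 axon guidance genes 29 fell and 3 rose (median −0.997), and of 26 tested clustered protocadherins 14 fell and none rose (median −1.18). Without replicate 2 the counts were 27 and 3, and 16 and 0 of 27. Other genes of cell contact were nearer to the 16.3% of all genes that fell, with 5 of 23 lower and none higher in the list of adhesion and 2 of 27 lower and 1 higher among integrins and laminins. *Robo1*, a receptor for Slit proteins, had 57.3, 59.4 and 63.9 CPM in set B and 21.9, 10.99 and 21.8 CPM in the mutant (log2 fold change −1.72, SE 0.254, adjusted p = 0.00159). *Efnb1*, an ephrin ligand, and *Plxna2*, a semaphorin receptor, fell by 2.90 and 2.72. *Sema6d* had 59 counts in set B and none in the mutant, at least 18.8-fold lower against a floor of 3 counts over the group, and *Robo2* went from 44 to 3 counts, 14.0-fold lower (95% counting interval 4.50 to 70.7). The exceptions were *Nrp2*, a receptor for semaphorins and vascular growth factors, *Ntn1*, which encodes netrin, and *Robo4*. *Nrp2* rose from 51.5, 46.3 and 48.5 CPM to 336, 223 and 335 CPM (log2 fold change 2.61, SE 0.181, adjusted p = 9.75e-05) and *Ntn1* by 1.33. *Pcdhgb1* and *Pcdhac2* fell by 3.8 and 2.98, and exons shared within each protocadherin cluster make the split of reads among its members uncertain.

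Of 24 interferon and antigen presentation genes 10 fell, 4 rose and 10 were not called (median −0.80), and 12 fell and 2 rose without replicate 2. The number that rose was 2 without replicate 2 and 1 without replicate 3 of set B. The feeder markers given above were lower in the same libraries, and their part was not tested. *B2m*, the light chain of class I molecules, had 32.3, 33.9 and 36.2 CPM in set B and 10.8, 16.6 and 10.2 CPM in the mutant, a log2 fold change of −1.44. Its partners in antigen processing, *Tap1* and *Psmb8*, fell by 2.5 and 2.74. The sensors of foreign RNA parted, since *Ddx58* (RIG-I) rose from 41.8, 40.7 and 44.8 CPM to 157, 142 and 158 CPM (log2 fold change 1.85) and *Ifih1* (MDA5) went from 45 to 3 counts, 14.4-fold lower (95% counting interval 4.61 to 72.3). *Oasl2* fell by 3.57. The guanylate-binding proteins *Gbp2* and *Gbp7*, which are neighbours on chromosome 3, fell by 4.46 and 5.05. In the integrated stress response 4 of 27 fell and none rose (5 and 0 without replicate 2), among them *Ddit4* and *Ddit3* (−1.65). *Ddit4* had 210.2, 211 and 205 CPM against 49.1, 55.2 and 50.6 CPM (log2 fold change −2.02). On the scale of all 18 libraries it averaged 213 CPM in set B, 114 CPM in set A and 54.6 CPM in the mutant. Of 29 p53 targets 4 fell and 1 rose (5 and 1 without replicate 2), among them *Bcl2* and *Bbc3*, with opposite roles in apoptosis, at −2.55 and −1.40. For the stress response and the p53 targets alike, the share that fell was near the 16.3% of all genes tested. In lipid and sterol synthesis 1 of 25 genes fell and none rose. Of 31 glutathione and oxidant defence genes 5 rose and 5 fell (4 and 8 without replicate 2), beside 6.75% and 16.3% of all genes tested. The median was −0.32, and 19 of the 31 had a negative log2 fold change. Among those that rose were *Gsta3*, *Gpx2* and *Gstp1*, at 3.37, 2.1 and 1.79.

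The lists of short genes moved with replicate 2. Of 76 tested subunits of oxidative phosphorylation 17 rose and none fell (median 0.79), and without replicate 2 the count was 1 and the median 0.46. *Uqcrq* of complex III had 96.6, 98.3 and 97.4 CPM in set B and 181, 359 and 178 CPM in the mutant, a log2 fold change of 1.3 with and 0.89 without that library. *Ndufa3* of complex I had 1.20 and 0.66, and the one still called was *Cox7a1*, at 2.22 and 1.66. Ribosomal protein genes had a median of 0.60 with replicate 2 and 0.22 without it, and 3 and 2 of 85 rose. One of these was *Rpl39l*, a testis-enriched ribosomal protein gene, with 0.929, 0.550 and 0.649 CPM against 28.8, 53.4 and 32.2 CPM (log2 fold change 5.75). RNAs without a poly(A) tail, a list of histone and small RNA genes, rose in 8 of 19 cases with replicate 2 (median 1.04) and 4 without it (0.72). *Rpph1*, the RNA of RNase P, rose by 1.56, whereas *Rmrp* had 1.44 with replicate 2 and 0.99 without it. The level of these RNAs also depends on how the library selected RNA, whose part was not tested.

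**Figure D4:**
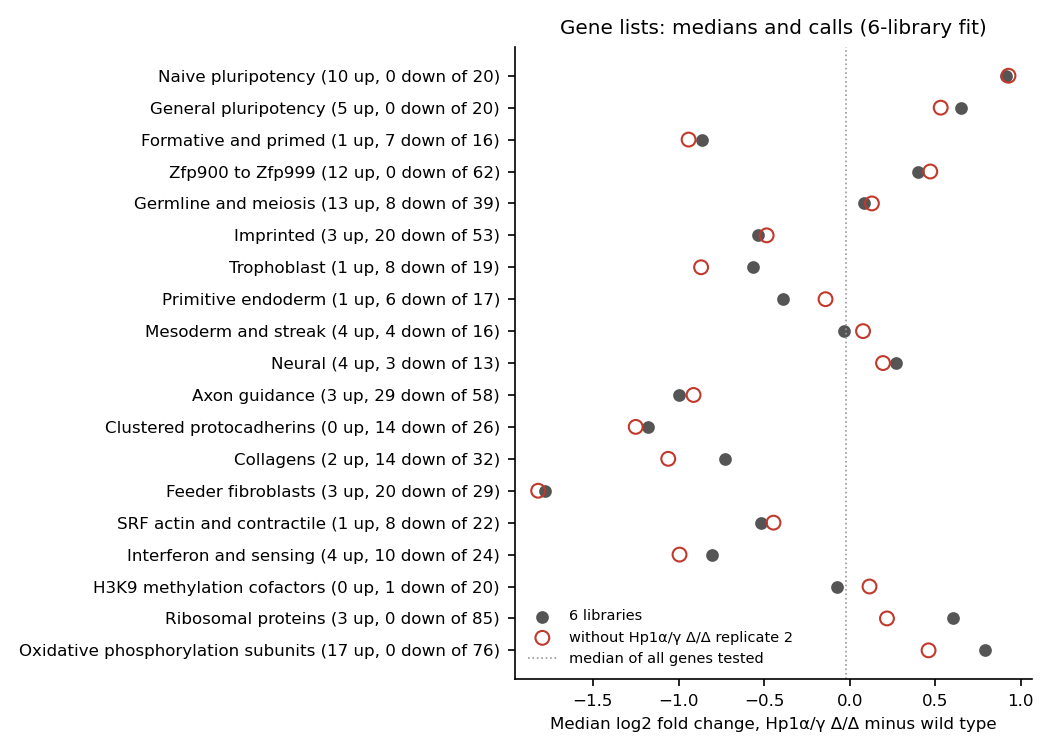
Median log2 fold change of each gene list (x axis) with all 6 libraries (filled) and without *Hp1α/γ* Δ/Δ replicate 2 (open), and the median of all genes tested (dotted line). The medians of naive pluripotency (0.91 and 0.93) and feeder fibroblasts (−1.78 and −1.82) differ by under 0.05 between the fits, whereas ribosomal proteins go from 0.60 to 0.22 and oxidative phosphorylation from 0.79 to 0.46.

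Among single genes, 1479 passed the rule for naming by size (called with and without replicate 2, groups apart, at least 5 CPM in the higher group), 378 up and 1101 down. Beside *Tdpoz6*, *Rpl39l*, *Tbx3*, *H19* and *Nefm*, the 20 largest rises were in *Ankrd36* (6.26), *Dcdc2a*, a doublecortin family gene (6.24), *BC064078* (6.00), *Olfr510*, an olfactory receptor gene (5.54), *Mep1b*, a subunit of the protease meprin (5.36), *Clec2i*, a lectin (4.80), *Cyp2b23*, a cytochrome P450 (4.52), *Nfib*, a nuclear factor I gene (4.46), *Kng2*, a kininogen (4.29), *Sh2d4b* (4.24), *Zfp264* (4.20), *Fam25c* (4.11), *Pou4f2*, a POU factor of retinal neurons (4.04), *Nppb*, a natriuretic peptide (3.99), and *Arl14epl* (3.82). *Mep1b* had 1.95, 1.40 and 1.69 CPM in set B and 72.5, 65.2 and 68.6 CPM in the mutant, and *Arl14epl* 7.01, 6.47 and 6.70 CPM against 97.2, 91.5 and 97.2 CPM. Replicate 2 was below its partners for *Olfr510*, with 29.9, 12.8 and 27.5 CPM in the mutant, and above them for *Fam25c*, with 10.5, 23.3 and 11.3 CPM. *BC064078* and *Clec2i* lie close to each other on chromosome 6.

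The 20 largest falls held *Col1a2*, *Acta2*, *Dab2*, *Gbp7* and *Gbp2*. Genes of transport and matrix among them were *Slc39a8*, a zinc and manganese transporter (−6.74), *Has2*, a hyaluronan synthase (−4.76), and *Lama4*, a laminin chain (−4.35). Genes known from neurons were *Cdh9*, a cadherin (−4.87), *Pclo*, a scaffold of the presynaptic zone (−4.35), *Insm1*, a zinc finger factor of neuroendocrine cells (−4.30), and *Tafa4* (−4.16). Others were *Zfp608* (−4.99), *Nhs* (−4.58), *Eya1* (−4.27), *Fndc3c1* (−4.21), *Cxcl12*, a chemokine (−4.20), and *Phldb2* (−4.18). *Nhs*, the gene of Nance-Horan syndrome, had the smallest SE of the 20, with 20.3, 19.9 and 20.4 CPM in set B and 0.872, 0.823 and 0.827 CPM in the mutant (SE 0.138, adjusted p = 8.52e-06). *Slc39a8* had 8.68 to 11.5 CPM in set B against 0.0459 to 0.131 CPM in the mutant. On the scale of all 18 libraries its mean was 10.6 CPM in set B, 1.41 CPM in set A and 0.0963 CPM in the mutant. The size of its fall thus depends on the *wild-type* set.

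Chromosome 16 was lower as a whole. The median log2 fold change of its 467 tested genes was −0.43 with and without replicate 2, with 19 genes up and 115 down. The next lowest autosome, chromosome 15, had −0.14, and chromosome 13, the highest, had 0.17. The fall ran along the length of chromosome 16, since each of 13 windows of 8 Mb had a median below 0, from −1.14 to −0.11. Its median was −0.45 in *Hp1β/γ* Δ/Δ ESCs against set B, and −0.50 and −0.51 in *Hp1α* Δ/Δ and *Hp1γ* Δ/Δ ESCs against set A. Genes named above that lie on it are *Robo1*, *Robo2*, *Phldb2*, *Rpl39l* and *Kng2*.

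A direct test against *Hp1β/γ* Δ/Δ ESCs asked where the double mutants differ, and does not rest on set B. Of 16210 genes tested 6.42% were higher and 17.5% lower in *Hp1α/γ* Δ/Δ ESCs (1041 and 2830 genes), and without replicate 2 it was 6.63% and 18.5%. Naive pluripotency genes were higher in 15 of 20 cases and lower in none (median 1.40, against −0.0239 for all genes tested). *Nr0b1*, *Tcl1*, *Nr5a2* and *Esrrb* were higher by 3.21, 3.30, 2.92 and 1.56 on the log2 scale. Against set B, *Nr0b1* and *Nr5a2* had −1.45 and −0.92 in *Hp1β/γ* Δ/Δ ESCs beside 1.76 and 2.0 in *Hp1α/γ* Δ/Δ ESCs. *Dnmt3a* and *Dnmt3b* were lower by 1.69 and 1.38 than in *Hp1β/γ* Δ/Δ ESCs and *Pou3f1* by 3.69. *Cbx1*, which the other mutant lacks, was higher by 2.41.

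Genes of the 2-cell state were lower than in *Hp1β/γ* Δ/Δ ESCs, where *Zscan4e*, *AA792892* and *Tdpoz8* had risen against set B. *AA792892* and *Tdpoz8* had no count in set B and *Zscan4e* a mean of 0.161 CPM. Of 31 tested 26 were lower in *Hp1α/γ* Δ/Δ ESCs and 2 were higher (median −5.37), and in the *Tdpoz* family 7 of 8 were lower and *Tdpoz6* higher. Against set B only 5 of the 40 genes listed, and 1 of 9 in the *Tdpoz* family, had enough reads to be tested. Most of the 31 thus passed the filter through the *Hp1β/γ* Δ/Δ libraries, which largely fixed the direction of these counts and of the median. *Zscan4e*, a marker of the 2-cell-like state, had 9.43, 9.01 and 10.97 CPM in the *Hp1β/γ* Δ/Δ libraries against 3 counts in all in *Hp1α/γ* Δ/Δ ESCs, 204-fold lower (95% counting interval 69.4 to 990-fold). *AA792892* and *Tdpoz8* had 492 and 366 counts against none, at least 139-fold and 104-fold lower. *Slc15a2*, a peptide transporter, had 917 counts against 2 and was 389-fold lower (107 to 3220-fold). *Sprr2a2* was uneven among the *Hp1β/γ* Δ/Δ libraries, with 21.1, 5.81 and 0.605 CPM. Higher in *Hp1α/γ* Δ/Δ ESCs, beside *Tdpoz6* (6.53), were *Zfp264* (5.26), *Samd9l*, an interferon-inducible gene (4.82), *Nfib* (4.66) and *Myo1f*, a myosin (4.60). Collagens (21 of 34 lower, 2 higher) and axon guidance genes (23 of 56 lower, 4 higher) differed here too, and without replicate 2 those counts were 21 and 2, and 20 and 4. In contrast *Zfp985* differed by 0.09 (adjusted p = 0.517) between the double mutants, and 1 of 62 *Zfp900* to *Zfp999* genes was higher (2 without replicate 2).

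The second test asked whether the double mutant departs from the sum of the *Hp1α* Δ/Δ and *Hp1γ* Δ/Δ effects on the log2 scale, each mutant against its own *wild-type* set. Of 16992 genes tested 5.65% lay above the sum and 7.85% below (960 and 1334 genes), and without replicate 2 it was 6.71% and 9.03%. Formative genes lay below it in 11 of 16 cases and above it in none (median −1.54, against 0.0153 for all genes tested), and general pluripotency genes above it in 8 of 20 and below in none (7 without replicate 2). Naive genes went both ways, 7 of 20 above and 3 below (8 and 3 without replicate 2), with *Klf4* at −1.86. *Fgf5* had a log2 fold change of 2.06 in *Hp1α* Δ/Δ, 0.40 in *Hp1γ* Δ/Δ and −3.37 in *Hp1α/γ* Δ/Δ ESCs, a departure of −5.80. *Dnmt3b* had values of 0.63, 0.36 and −1.18 in the same order, a departure of −2.13. *Tbx3* had 0.73, 1.68 and 4.44, a departure of 2.06. *Nrp2*, at 1.44, 1.70 and 2.61, had a departure of −0.50 (adjusted p = 0.14) and *Lef1*, at 1.22, 1.12 and 1.66, one of −0.64 (adjusted p = 0.179), neither past the test. *Nanog*, at 0.22, 0.54 and 1.5, had a departure of 0.77 (adjusted p = 6.29e-04), under the fold threshold. Genes of *Zfp900* to *Zfp999* lay above the sum in 26 of 62 cases (31, with 1 below, without replicate 2) and sterol genes below it in 9 of 25.

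The largest departures above the sum were in *Pla2g7*, a phospholipase (6.23), *Fgf10* (5.70), *Dmrtc1c1* (5.53), *Ubd*, a ubiquitin-like modifier (4.19), and *Gsta3* (3.88). *Pla2g7* changed by −2.03 and −1.39 in the single mutants and by 2.77 in the double mutant, where it had 22.3, 30.8 and 21.3 CPM against 2.86, 3.24 and 4.37 CPM in set B. Below the sum were *Col1a2* (−8.66), *Slc39a8* (−6.40), *Acta2* (−6.38) and *Prickle1*, a planar polarity gene (−5.63). *Col1a2* rose by 1.43 and 1.93 in the single mutants. The departure rests on 2 *wild-type* sets, and *Col1a2* had 1.36 ± 0.165 CPM (SD, n = 3) in set A and 5.89 ± 1.03 CPM (SD, n = 3) in set B.

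**Figure D5:**
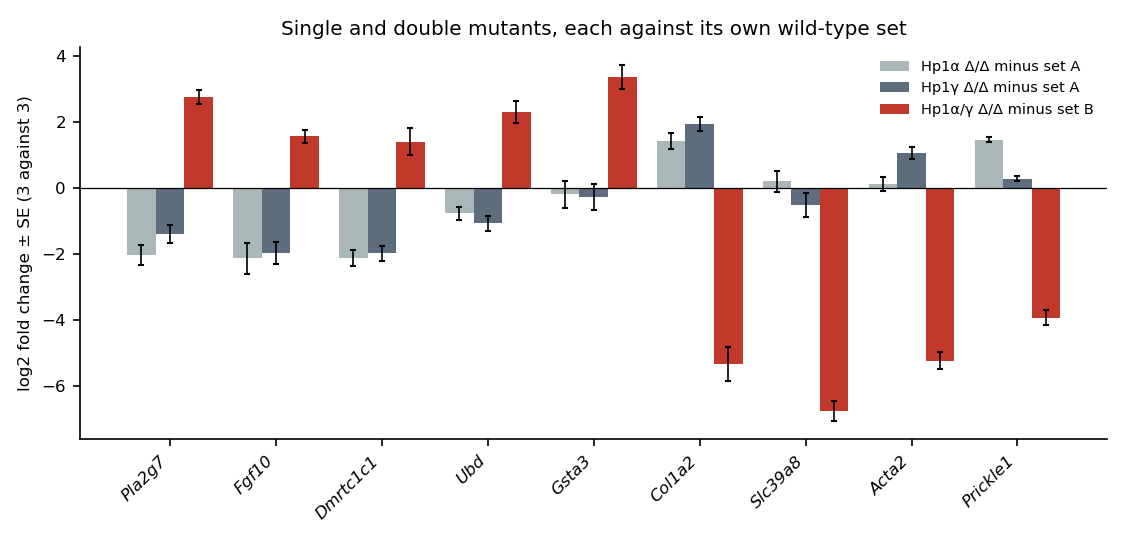
Log2 fold change ± SE (y axis) of 9 of the 10 genes with the largest departures from the sum of single mutant effects, for *Hp1α* Δ/Δ and *Hp1γ* Δ/Δ against set A and *Hp1α/γ* Δ/Δ against set B, 3 libraries on each side. *Pla2g7*, *Fgf10*, *Dmrtc1c1* and *Ubd* are negative in the single mutants and positive in the double mutant, and *Col1a2* and *Prickle1* are the reverse.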

How the data were processed

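RNA sequencing of 18 libraries was used, 3 for each of 6 groups named by genotype in the labels. The libraries were made from Trizol RNA with a TruSeq kit, a stranded total RNA version by the study's methods and a TruSeq RNA kit by the labels, and the strand setting of the counting is not given in the sources used here. The authors deposited expected counts per gene, and TPM beside them. The submitters' processing notes name TopHat2 2.1.1, RSEM, edgeR and GRCm38.p5, with no order.

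Deposited expected counts were rounded to whole numbers, filtered with filterByExpr at a minimum count of 10, scaled by TMM and tested with the quasi-likelihood test of edgeR 4.0.16 in R 4.3.3, with Benjamini-Hochberg adjustment over all genes tested. CPM uses the TMM scaling. The deposited TPM served only for levels of the HP1 genes, because they allow comparison between genes. Library totals ran from 19961427 to 25743236 counts. Fold intervals of genes with at most 3 counts in a group are exact and, like the floor of 3 counts, cover counting error only. Gene models of GENCODE M21 matched 55227 of the 55487 genes. The scripts were tested on simulated data. The departure from the sum is a contrast in 1 fit of 15 libraries.

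Members and gene lists were chosen with earlier results of these data known, so the lists are described by counts and medians and carry no test of their own. Genes were named as members of a list, or as the 20 highest and 20 lowest log2 fold changes (5 and 5 in the other comparisons) among genes called with and without replicate 2 of *Hp1α/γ* Δ/Δ, with groups apart and the higher group averaging 5 CPM or more. Symbols that start with Gm or end with Rik or -ps were left out of the ranks, 125 genes in all. Some genes that the rule names are not reported here. *Adnp*, *Rex2* and *Zfp600* were named after their values were seen. Alternatives were RLE size factors, no filter, 10 counts in every library, DESeq2 1.42.0, a replicate block, a joint fit of 9 libraries, set A as control, removal of the length trend with a spline, library quality weights with limma 3.58.1, and leaving out each library. The combinations of leaving out replicate 2 with DESeq2, with the length trend removed or with set A were added after seeing the data. Replicate numbers did not pair the samples, as deviations of same-numbered libraries from their group means had correlations of 0.0217, 0.0269 and −0.0219.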

Additional observations from a re-analysis of the deposited data

Results flagged for a closer look

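In 2 comparisons the effect of losing HP1α and HP1γ differed from the effect of other mutants, by a test of the difference itself. Against the other double mutant, *Hp1β/γ* Δ/Δ, the test called 1041 genes higher and 2830 lower. The 5 named genes that were higher were *Tdpoz6* (6.53), *Zfp264* (5.26), *Samd9l* (4.82), *Nfib* (4.66) and *Myo1f* (4.60), as log2 differences by edgeR's quasi-likelihood test. The 5 that were lower were *AA792892* (−10.26), *Tdpoz8* (−9.84), *Slc15a2* (−8.40), *Zscan4e* (−7.53) and *Sprr2a2* (−7.05). Since *AA792892* and *Tdpoz8* had no count in *Hp1α/γ* Δ/Δ ESCs, their fitted values depend on the prior count. Each of the 5 had at most 4 counts there and passed the filter through the *Hp1β/γ* Δ/Δ libraries, which largely fixed the direction. *Sprr2a2* was uneven among those libraries (21.1, 5.81 and 0.605 CPM, SE of the difference 1.69). *Samd9l* and *Slc15a2* moved in opposite directions against set B, *Samd9l* by 2.58 in *Hp1α/γ* Δ/Δ and −2.24 in *Hp1β/γ* Δ/Δ ESCs, and *Slc15a2* by −5.03 and 3.37.

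Against the sum of the *Hp1α* Δ/Δ and *Hp1γ* Δ/Δ effects, 960 genes lay above and 1334 below. The departures above were 6.23 for *Pla2g7*, 5.70 for *Fgf10*, 5.53 for *Dmrtc1c1*, 4.19 for *Ubd* and 3.88 for *Gsta3*. Those below were −8.66 for *Col1a2*, −6.40 for *Slc39a8*, −6.38 for *Acta2* and −5.63 for *Prickle1*. *Slc39a8* had a mean of 1.41 CPM in set A and 10.6 CPM in set B. *Col1a2* and *Acta2* are fibroblast markers, and the summed feeder markers differed between the *wild-type* sets (between 32.6 and 33.7 CPM for set A, between 51.1 and 58.7 CPM for set B), whose part in these departures was not tested.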

How the results depend on the processing

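The counts of genes that rose (1069) and fell (2588) in *Hp1α/γ* Δ/Δ ESCs moved by over 1.5 times under 1 alternative. With the adjusted p alone and no fold threshold, 3196 rose and 4165 fell. Under the other alternatives they ran from 715 and 1779 (10 counts in every library, where fewer genes are tested) to 1433 and 2937 (set A as control, the latter also without replicate 2). Leaving out 1 library at a time gave 911 to 1269 higher and 2319 to 2734 lower. With the replicate block, which the deviations do not support as a pairing, 988 rose and 2559 fell, and 962 and 2755 genes were higher and lower than in *Hp1β/γ* Δ/Δ ESCs. DESeq2 called 1323 and 2589. Of 2895 values of named genes under the alternatives, 2782 kept direction and call, 100 lost the call and 5 gained one. The 8 that changed sign belong to 3 genes that were not called. *Setdb1* had 0.11 with the length trend removed, −0.21 to 0.00 with 1 library left out (0.00 without replicate 2), 0.01 with replicate 2 out and DESeq2 and 0.16 with replicate 2 out and the length trend removed. With set A as control *Sox2* had 0.08 and *Otx2* 0.58, and 0.08 and 0.57 without replicate 2. The cause was not tested. Depth limits genes with few counts, whose folds have wide counting intervals.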
